A study of Mus musculus with 16 samples.

Results

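A set of genes of the cartilage programme was followed in mouse tail tendon fascicles, 10 of the 25719 genes in the deposited tables. They were taken by symbol, as chondrogenic transcription factors (Sox9, Sox5, Sox6 and Runx2) and as cartilage matrix or secreted cartilage genes (Acan, Hapln1, Matn2, Matn3, Matn4 and Cnmd). RNA of whole fascicles, the thin collagen strands of the tail, was sequenced in 16 libraries. Of these, 8 were labelled WT, wild type, and 8 KO, and the series design gives the knockout as ScxCre;Vhlf/f. Cre under control of the tendon gene Scx deletes floxed Vhl sequence where Scx is or was active, so cells of other lineages in the fascicle keep the gene. The labels give no age or sex, and do not say whether the wild type carried Cre or floxed Vhl. They also do not say whether each library came from a separate mouse, so p-values describe the spread between these libraries only, which may in part be technical. The libraries mixed sexes: the mean log2 CPM of Y-linked genes was 5.61 and 5.67 in wild type libraries 7 and 8 and 5.65 and 5.72 in knockout libraries 1 and 6, and -2.63 or lower in the other 12, so each genotype held RNA of at least 2 mice. With that level as a covariate the members called were again 5 higher and 3 lower.

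The Vhl protein recognises hydroxylated HIF subunits and has them ubiquitinated and degraded. SOX9 is the master transcription factor of cartilage, and SOX5 and SOX6, which lack an activation domain of their own, act with it on matrix genes such as those for collagen II and aggrecan. RUNX2 drives later steps, hypertrophy of chondrocytes and bone formation. Aggrecan, the product of Acan, carries chondroitin sulfate chains and is held on hyaluronan by the link protein HAPLN1, while matrilins, the Matn products, are adaptors that join collagen fibrils to proteoglycans.

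Of the 10 genes, 9 passed the expression filter and were tested, and 8 of the 9 differed between the genotypes (edgeR quasi-likelihood test, Benjamini-Hochberg adjusted p under 0.05 over all 14803 tested genes), where 48.3% of all tested genes did. Higher in the knockout were Sox9, Sox5, Runx2, Acan and Hapln1, 5 genes, where 25.6% of all tested genes were higher. Lower were Matn2, Matn3 and Matn4, 3 genes, where 22.7% of all tested genes were lower. Sox6 did not pass the threshold, and Cnmd was under the filter. The libraries of the genotypes did not overlap for 7 of the 9 tested genes, 4 above and 3 below the wild type, as for 19.4% of all tested genes (10.8% above and 8.61% below). The median log2 fold change of the 9 was 0.57, beside 0.02 for all tested genes, and 7 of the 9 changed at least 2-fold, as 13.2% of all tested genes did. By role, 3 of the 4 transcription factors and both parts of the aggrecan aggregate rose, and the 3 matrilins fell.

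**Figure D1:**
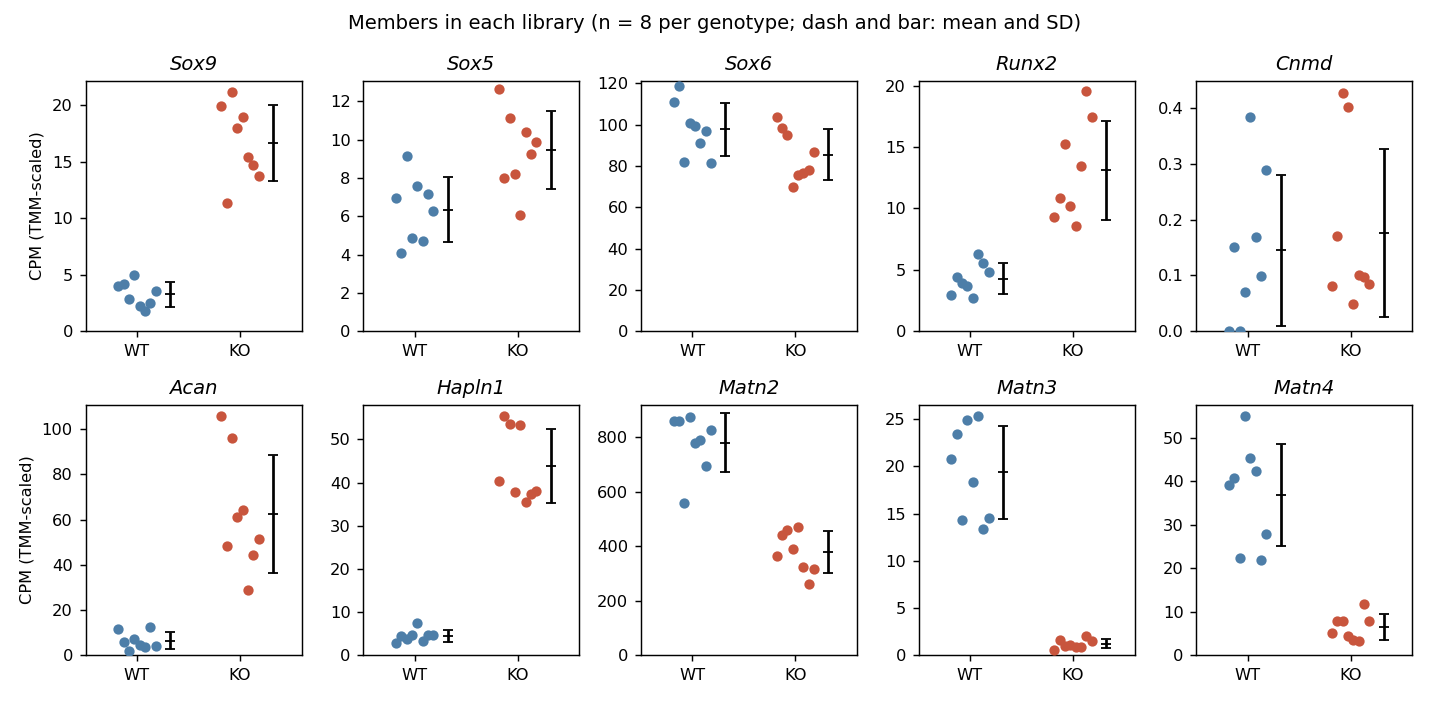
Level of each of the 10 genes in every library, in CPM (counts scaled to library size), wild type beside knockout, with the mean and SD of 8 libraries. The groups do not overlap for Sox9, Runx2, Acan, Hapln1 and the 3 matrilins, and they overlap for Sox5, Sox6 and Cnmd.

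Total counts ran from 10488355 to 18753254 per knockout library and from 10792900 to 16379401 per wild type library. Levels are CPM on library sizes scaled by the trimmed mean of M-values (TMM). Vhl, read first as a check of the labels, lay between 14.1 and 25.8 CPM in wild type and between 7.51 and 10.9 CPM in the knockout (log2 fold change -1.13, SE 0.113, edgeR, adjusted p = 9.64e-08). Markers of some other cell types differed between the genotypes, where 25.6% of all tested genes were higher and 22.7% lower. Of 7 tested endothelial markers 5 were higher, and the list summed to between 39.6 and 56.5 CPM in wild type and between 56.1 and 481 CPM in the knockout. Pecam1, among the 7, had 3 to 21 counts per wild type library and 54 to 3058 per knockout library. It thus passed the filter only through the knockout. Of 7 tested mural markers 4 were higher and 1 lower, with sums between 354 and 473 CPM in wild type and between 328 and 1485 CPM in the knockout. Of 12 skeletal muscle markers 1 was higher, with sums between 51.8 and 4295 CPM in wild type and between 137 and 8213 CPM in the knockout, and of 7 tested Schwann cell markers 3 were higher, with sums between 417 and 481 CPM in wild type and between 296 and 547 CPM in the knockout. The median Schwann cell sum was 448 CPM in wild type and 395 CPM in the knockout. All 5 erythroid markers were higher, with sums between 15.1 and 50.6 CPM in wild type and between 77.2 and 559 CPM in the knockout. Of 6 macrophage markers 3 were higher, with sums between 964 and 1363 CPM in wild type and between 1111 and 1562 CPM in the knockout. The 1 tested adipocyte marker, Fabp4, was higher. It passed the filter mainly through the knockout, with 0 to 14 counts per wild type library and 6 to 1033 per knockout library. The adipocyte list summed to between 0.290 and 1.73 CPM in wild type. In the knockout its sums lay between 0.680 and 55.9 CPM, highest in knockout libraries 6, 7 and 8. Of 3 tested keratinocyte markers 2 were lower, with sums between 27.2 and 54.3 CPM in wild type and between 20.9 and 26.1 CPM in the knockout that did not overlap, and Krt1 and Krt15 were at 0 in all libraries. Knockout libraries 6, 7 and 8 had the highest endothelial and mural scores (mean log2 CPM of the tested markers) of all libraries and the highest muscle scores of the knockout. The endothelial score ran from 1.71 to 2.52 in wild type and from 2.43 to 5.57 in the knockout, so it nearly separated the genotypes. A call lost with it as a covariate therefore cannot be assigned to vessel content rather than to genotype. The part of these cells in the results was not tested beyond the fits with a marker score as a covariate given here, and in bulk samples fewer cells of a type and less RNA per cell cannot be told apart.

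Promoters of 8 of the 10 genes were found in the RefSeq table (assembly GRCm38.p6), at 14 annotated starts, and Sox9 and Matn2 have no entry. Shown are the 250 bases before the start of Acan and Matn3, the matrix genes with the largest rise and fall, and of Sox5 and the most upstream start of Sox6, close relatives of each other and the only members with a match. Capitals mark the letters ACGTG or GCGTG, the core of the hypoxia response element, and ACAATGG, which SOX proteins bind, each on either strand.
Acan (chr7:79052976-79053225, plus strand): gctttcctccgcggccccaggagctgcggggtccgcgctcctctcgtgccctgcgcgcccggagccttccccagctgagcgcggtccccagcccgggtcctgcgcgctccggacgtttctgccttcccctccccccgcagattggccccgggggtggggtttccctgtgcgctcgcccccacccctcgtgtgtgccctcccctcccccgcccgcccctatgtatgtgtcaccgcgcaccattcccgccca
Matn3 (chr12:8947679-8947928, plus strand): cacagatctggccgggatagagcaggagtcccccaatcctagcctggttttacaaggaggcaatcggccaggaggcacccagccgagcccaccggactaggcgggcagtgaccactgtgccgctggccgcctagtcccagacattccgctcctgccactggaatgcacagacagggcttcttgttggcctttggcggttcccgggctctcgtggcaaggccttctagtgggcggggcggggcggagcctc
Sox5 (chr6:143947107-143947356, minus strand): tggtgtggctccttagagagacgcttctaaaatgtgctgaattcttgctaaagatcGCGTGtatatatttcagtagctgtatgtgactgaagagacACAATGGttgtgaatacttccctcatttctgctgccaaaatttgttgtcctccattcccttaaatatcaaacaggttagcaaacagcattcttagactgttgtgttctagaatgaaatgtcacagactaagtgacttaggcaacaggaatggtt
Sox6 (chr7:116038745-116038994, minus strand): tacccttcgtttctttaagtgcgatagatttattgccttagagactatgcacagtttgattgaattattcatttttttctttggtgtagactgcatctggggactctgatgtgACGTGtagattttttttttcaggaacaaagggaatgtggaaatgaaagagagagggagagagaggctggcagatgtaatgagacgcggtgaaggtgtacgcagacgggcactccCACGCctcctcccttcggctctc
The hypoxia response core stood in 2 of the 14 windows, and in 38.8% of all 32536 windows of this length in the table. In Sox5 it began 194 bases before the start, and in Sox6 it began at 137 and, on the other strand, at 23 bases before it. The SOX letters stood in 1 of the 14 windows, that of Sox5 at 154 bases before the start, and in 3.03% of all windows. A match of letters is a description of the sequence and not a binding site, and the other windows lack only these letters.

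Sox9 (ENSMUSG00000000567, chromosome 11) had the largest change of the 4 transcription factors. Its wild type libraries ran from 1.77 to 4.95 CPM with a median of 3.23, and its knockout libraries from 11.4 to 21.2 CPM with a median of 16.7. Every knockout library lay above every wild type library. The mean rose from 3.26 ± 1.10 to 16.7 ± 3.38 CPM (SD, n = 8), 5.08-fold, a log2 fold change of 2.34 (SE 0.185, edgeR, adjusted p = 3.90e-09).

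Its partners moved less. Sox5 (ENSMUSG00000041540, chromosome 6) had a lowest, median and highest level of 4.08, 6.61 and 9.13 CPM in wild type and of 6.08, 9.55 and 12.6 CPM in the knockout. The groups overlapped. Its mean rose from 6.35 ± 1.70 to 9.44 ± 2.03 CPM, 1.49-fold, a log2 fold change of 0.57 (SE 0.167, edgeR, adjusted p = 0.00801, n = 8). With the endothelial score as a covariate the value was 0.31 and no longer passed (adjusted p = 0.419, the highest of its 29 alternatives, whose lowest was 5.50e-04).

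Sox6 (ENSMUSG00000051910, chromosome 7), whose product also acts in muscle fibres and red blood cells, was the most abundant of the trio. It ran from 81.4 to 119 CPM, median 98.3, in wild type and from 69.7 to 104 CPM, median 82.4, in the knockout. The groups overlapped and the log2 fold change of -0.19 did not pass the threshold (SE 0.0935, edgeR, adjusted p = 0.0964). It passed without wild type library 3, at -0.23 (adjusted p = 0.0483), and without knockout library 1, at -0.24 (adjusted p = 0.0411). Scaled to total counts, which moved the median of all genes to 0.32, its sign turned, to 0.12, and over all its alternatives the adjusted p lay between 0.0411 and 0.891.

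The unequal change within the trio was tested as the difference of log2 CPM inside each library (2-sided exact permutation tests over 12870 assignments, Benjamini-Hochberg over 9 pairs of genes). Sox9 relative to Sox5 went from -0.96 ± 0.697 in the wild type to 0.81 ± 0.391 in the knockout, a shift of 1.77 (exact p = 1.55e-04, the smallest this design can give, adjusted 2.80e-04, n = 8). Sox9 relative to Sox6 shifted by 2.54 (exact p = 1.55e-04, adjusted 2.80e-04) and Sox5 relative to Sox6 by 0.77 (exact p = 0.00109, adjusted 0.00140). The 3 genes thus changed by unequal amounts. Per length of the annotated exons, Sox9 made up 9.997% ± 2.84 of the summed level of the trio in the wild type (SD, n = 8) and 38.5% ± 5.87 in the knockout. Sox6 went from 84.2% ± 3.06 to 55.2% ± 5.65 and was the largest part on average in both genotypes, and Sox5 stood at 5.79% ± 1.92 and 6.27% ± 1.05.

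Runx2 (ENSMUSG00000039153, chromosome 17) also separated the genotypes. Its wild type libraries lay between 2.69 and 6.33 CPM, median 4.14, and its knockout libraries between 8.60 and 19.5 CPM, median 12.2. Knockout libraries 7 and 8, with the highest endothelial scores, were the highest, at 19.5 and 17.5 CPM. The mean rose from 4.29 ± 1.26 to 13.1 ± 4.03 CPM, 3.05-fold, a log2 fold change of 1.61 (SE 0.1997, edgeR, adjusted p = 1.78e-06, n = 8). Leaving out knockout libraries 6 to 8 gave 1.32 on the log2 scale (adjusted p = 2.48e-05), and with the endothelial score as a covariate it was 1.18 (adjusted p = 0.00405, the highest over its alternatives, the lowest being 7.08e-14). The difference of log2 CPM between Sox9 and Runx2 shifted by 0.77 (exact permutation test, p = 0.0362, adjusted 0.0407, n = 8). That shift lost the threshold in 10 of the 16 tests that left out 1 library, wild type 3, 5, 6, 7 or 8 or knockout 1, 3, 4, 5 or 6, with values between 0.58 and 0.80.

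Acan (ENSMUSG00000030607, chromosome 7) ran from 1.79 to 12.4 CPM, median 4.97, in wild type and from 28.9 to 106 CPM, median 56.3, in the knockout. Knockout libraries 1 and 3 stood highest, at 106 and 96.3 CPM, and library 6 lowest, yet all were above the whole wild type. The mean rose from 6.24 ± 3.81 to 62.6 ± 26.1 CPM, 10.1-fold, a log2 fold change of 3.34 (SE 0.377, edgeR, adjusted p = 2.42e-06, n = 8).

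Hapln1 (ENSMUSG00000021613, chromosome 13), the cartilage link protein, lay between 2.80 and 7.30 CPM, median 4.50, in wild type and between 35.5 and 55.4 CPM, median 39.1, in the knockout. The groups stood far apart. The mean rose from 4.39 ± 1.37 to 43.9 ± 8.59 CPM, 9.99-fold, a log2 fold change of 3.32 (SE 0.165, edgeR, adjusted p = 7.15e-12, n = 8). The log2 difference between Acan and Hapln1 was 0.32 ± 1.01 in wild type and 0.42 ± 0.552 in the knockout, a shift of 0.11 that is smaller than either SD (2-sided exact permutation test, p = 0.790, n = 8).

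Relatives of these genes had other values. Vcan encodes versican, the lectican of loose connective tissue, and stood at 372 ± 114 CPM in wild type and 368 ± 77.7 CPM in the knockout (log2 fold change -0.01, SE 0.172, edgeR, adjusted p = 0.951, n = 8). Acan relative to Vcan shifted by 3.39 (exact permutation test, p = 1.55e-04, adjusted 2.80e-04, n = 8). Bcan, known from brain matrix, fell from 14.8 ± 8.06 to 2.32 ± 0.863 CPM (log2 fold change -2.67, edgeR, adjusted p = 3.31e-06). Among link proteins, Hapln3 fell from 4.97 ± 1.19 to 0.640 ± 0.301 CPM (-2.97, edgeR, adjusted p = 4.78e-09), with 2 to 14 counts per knockout library. Hapln4 fell from 5.60 ± 2.75 to 0.143 ± 0.105 CPM (-5.22, edgeR, adjusted p = 6.08e-09), with 0 to 5 counts per knockout library. Both thus passed the filter only through the wild type, and the sizes of their changes are uncertain.

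Per exon length, Hapln1 was 21.6% ± 6.32 of the summed link protein level in the wild type (SD, n = 8), between 10.1% and 28.5%, and 96.9% ± 0.925 in the knockout, between 95.9% and 98.3%. Hapln3 and Hapln4 made up 40.1% ± 6.13 and 38.1% ± 9.21 of the wild type level and 2.33% ± 0.859 and 0.489% ± 0.371 of the knockout level. The link protein transcripts thus went from a mixture to nearly all Hapln1. Acan was 2.89% ± 1.86 of the lectican level in wild type and 24.0% ± 8.10 in the knockout, and Vcan went from 85.3% ± 4.24 to 74.3% ± 8.32, with 60.6% in its lowest knockout library. Versican transcripts were thus the larger part in every library.

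**Figure D2:**
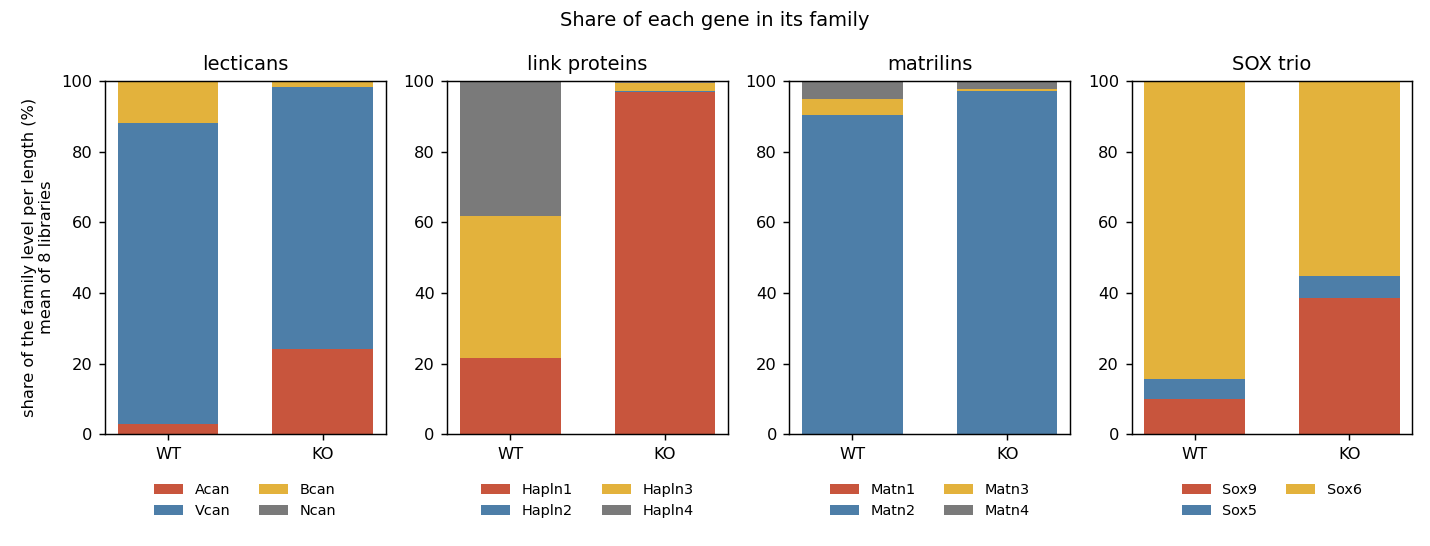
Share of each gene in the summed level per exon length of its family (percent, mean of 8 libraries), for lecticans, link proteins, matrilins and the SOX trio, wild type beside knockout. Hapln1 goes from 21.6% to 96.9% of the link proteins and Acan from 2.89% to 24.0% of the lecticans, while Vcan, Matn2 and Sox6 are the largest part of their families in both genotypes.

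Of 10 other lecticans, link proteins and hyaluronan genes, 8 were tested, 2 higher and 4 lower, with a median log2 fold change of -0.40. Hapln3 and Hapln4, which passed the filter only through the wild type, are among the lower. Among all tested genes 25.6% were higher and 22.7% lower. Cd44, the hyaluronan receptor, rose from 111 ± 16.6 to 242 ± 47.1 CPM (1.13, edgeR, adjusted p = 1.66e-07, n = 8). The hyaluronan synthase gene Has3 stood at 20.2 ± 0.919 CPM in wild type and 18.4 ± 1.89 CPM in the knockout (-0.14, edgeR, adjusted p = 0.0799). It passed without knockout library 1, at -0.19 (adjusted p = 0.00636, the lowest of its alternatives, the highest being 0.480). With limma-voom and quality weights on all 16 libraries it also passed, at -0.15 (adjusted p = 0.0423). Of 20 enzymes and transporters for chondroitin sulfate chains, 19 were tested, 9 higher and 3 lower, with a median of 0.09. Chst11, a sulfotransferase of these chains, rose from 3.82 ± 1.30 to 8.47 ± 1.25 CPM (1.14, adjusted p = 1.63e-05), Xylt1, which starts the chains, from 43.2 ± 6.01 to 78.4 ± 17.0 CPM (0.86, adjusted p = 8.27e-06), and the sulfotransferase gene Chst15 from 35.1 ± 10.3 to 62.4 ± 5.65 CPM (0.83, adjusted p = 2.47e-05). The chain polymerase gene Chpf fell from 109 ± 18.3 to 74.7 ± 10.2 CPM (-0.54, adjusted p = 3.24e-04). Csgalnact2, also of this list, fell from 155 ± 10.4 to 113 ± 14.9 CPM (-0.46, edgeR, adjusted p = 4.99e-05, n = 8). That call was lost with total counts (-0.16, adjusted p = 0.145) and with the endothelial score as a covariate (-0.28, adjusted p = 0.0796). Calls in both directions also occurred among all tested genes, 25.6% higher and 22.7% lower, with a median of 0.02.

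The matrilins fell by unequal amounts. Matn3 (ENSMUSG00000020583, chromosome 12), a cartilage matrilin, lay between 13.3 and 25.3 CPM, median 19.5, in wild type and between 0.567 and 2.04 CPM, median 0.992, in the knockout. Its mean fell from 19.4 ± 4.95 to 1.18 ± 0.495 CPM, 16.2-fold lower, a log2 fold change of -4.02 (SE 0.226, edgeR, adjusted p = 3.79e-11, n = 8). This was the largest change among the 9 tested members.

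Matn4 (ENSMUSG00000016995, chromosome 2), a matrilin of cartilage and other connective tissue, lay between 21.99 and 55.1 CPM, median 40.0, in wild type and between 3.19 and 11.8 CPM, median 6.38, in the knockout. The mean fell from 36.9 ± 11.7 to 6.38 ± 2.94 CPM, 5.79-fold lower, a log2 fold change of -2.53 (SE 0.284, edgeR, adjusted p = 1.55e-06, n = 8). The groups did not overlap. Matn2 (ENSMUSG00000022324, chromosome 15), the widely expressed matrilin, lay between 557 and 874 CPM, median 809.9, in wild type and between 259 and 472 CPM, median 376, in the knockout. Wild type library 3 and knockout libraries 6, 7 and 8 were the lowest of their groups. The mean fell from 781 ± 108 to 378 ± 76.3 CPM, 2.07-fold lower, a log2 fold change of -1.05 (SE 0.124, edgeR, adjusted p = 8.15e-07, n = 8). With the endothelial score as a covariate it was -0.56 (adjusted p = 0.00810, the highest over its alternatives, the lowest being 2.38e-16). Exons of Matn4 share 149 bases with Rbpjl and those of Matn2 share 70 bases with 9430069I07Rik, each on the other strand. The strand setting of the counting is not given in the sources used here, so these counts are uncertain.

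The falls differed from each other. Matn2 relative to Matn3 shifted by 2.86 (exact permutation test, p = 1.55e-04, adjusted 2.80e-04, n = 8), Matn2 relative to Matn4 by 1.50 (exact p = 9.32e-04, adjusted 0.00140) and Matn3 relative to Matn4 by -1.36 (exact p = 1.55e-04, adjusted 2.80e-04). Per exon length Matn2 made up 90.3% ± 1.79 of the matrilin level in wild type and 97.2% ± 1.73 in the knockout (SD, n = 8). Matn1, a matrilin of cartilage, had at most 1 count in any library.

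Cnmd (ENSMUSG00000022025, chromosome 14) encodes chondromodulin, the cartilage relative of tenomodulin and an inhibitor of vessel growth. Counts ran from 0 to 4 in wild type and from 1 to 5 in the knockout, close to the floor of 3 counts, which equals between 0.145 and 0.336 CPM depending on the library. A difference was not detectable at this depth. Its tendon relative Tnmd fell from 2363 ± 469 to 1255 ± 399 CPM (log2 fold change -0.91, edgeR, adjusted p = 2.03e-04, n = 8), a call lost with the endothelial score as a covariate (-0.25, adjusted p = 0.394, the highest over its alternatives).

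The order of the levels per exon length changed. In the wild type it was Matn2 (125 ± 17.2 RPKM, which is CPM per kilobase of exon, SD, n = 8), Matn4 (7.13 ± 2.27), Sox6 (6.59 ± 0.879), Matn3 (6.43 ± 1.64), Acan (0.836 ± 0.510), Sox9 (0.788 ± 0.265), Hapln1 (0.743 ± 0.233), Runx2 (0.485 ± 0.142), Sox5 (0.442 ± 0.118) and Cnmd (0.0789 ± 0.0735). Neighbours closer than their SDs were Matn4, Sox6 and Matn3, then Acan, Sox9 and Hapln1, and then Runx2 and Sox5. In the knockout Matn2 (60.3 ± 12.2) was followed by Acan (8.38 ± 3.50), Hapln1 (7.44 ± 1.46), Sox6 (5.76 ± 0.829), Sox9 (4.03 ± 0.818), Runx2 (1.48 ± 0.456), Matn4 (1.23 ± 0.569), Sox5 (0.657 ± 0.141), Matn3 (0.391 ± 0.164) and Cnmd (0.0958 ± 0.0818). Here Acan and Hapln1, and Runx2 and Matn4, were closer than their SDs. Acan and Hapln1 moved from the fifth and the seventh place to the second and the third, and Matn3 from the fourth to the ninth.

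Relations of Sox9 with the 8 other tested members were computed within each genotype, 16 in all, and none passed after adjustment, with 1 Pearson p under 0.05 before it (exact permutation tests, n = 8, lowest adjusted p = 0.477 for Pearson's r and 0.244 for Spearman's rho). For Matn3 in the knockout r was -0.75 (exact p = 0.0348), rho -0.74 (exact p = 0.0458), and r -0.81 without the 2 libraries farthest from the median of Sox9. For Acan r was 0.69 in the knockout (exact p = 0.0597), rho 0.76 (exact p = 0.0368), and r 0.73 without 2 libraries. In the wild type r of Acan was 0.29 (exact p = 0.483), rho 0.38 (exact p = 0.360), and r 0.12 without 2 libraries. A link between the level of Sox9 and that of its known targets was thus not resolved within a genotype. After centring within genotype, the genes most like Sox9 over the 16 libraries, among 13417 compared, were Zfp518b (r = 0.89), Prr7 (0.82), BC034090 (0.82), Mtf1 (0.80) and Tedc1 (0.79). Those most like Acan were Slc29a3 (0.87), B4galnt3 (0.84), Dock8 (0.81), Col16a1 (0.80) and Col1a1 (0.80). Depth and tissue make-up differed between these libraries. Their part in these correlations was not tested, and the values are descriptions.

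The wider cartilage matrix had fewer genes higher than lower. Of 19 other cartilage matrix genes, 14 were tested, and 3 were higher, 7 lower and 4 not past the threshold, with a median log2 fold change of -0.73. Among all tested genes 25.6% were higher and 22.7% lower. Col2a1, the collagen of hyaline cartilage, stood at 84.0 ± 27.3 CPM in wild type and 53.9 ± 27.8 CPM in the knockout (log2 fold change -0.64, SE 0.357, edgeR, adjusted p = 0.152, n = 8). Wild type library 3 was the lowest of its group, at 21.2 CPM, and without it Col2a1 passed at -0.80 (adjusted p = 0.0427, the lowest over its alternatives, the highest being 0.458). Col11a2, a chain of collagen XI, fell from 1201 ± 316 to 147 ± 87.3 CPM (-3.03, adjusted p = 4.57e-06). Its partner Col11a1 stood at 1047 ± 232 CPM in wild type and 872 ± 169.5 CPM in the knockout (-0.26, adjusted p = 0.152), and of its alternatives passed in 1, without wild type library 3, at -0.35 (adjusted p = 0.0271, the highest over its alternatives being 0.832). Col9a1, of collagen IX, had at most 7 counts in a library.

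Among the other genes of that list, Cilp2 fell from 1649 ± 369.8 to 212 ± 89.2 CPM (-2.96, edgeR, adjusted p = 4.15e-09, n = 8), and Cytl1, a secreted protein known from cartilage, from 8.52 ± 3.60 to 1.55 ± 0.734 CPM (-2.48, adjusted p = 1.87e-06). Prg4, which encodes lubricin, fell from 4458 ± 551 to 1575 ± 343 CPM (-1.50, adjusted p = 6.53e-09). Cilp, the relative of Cilp2, rose from 1159 ± 351 to 2389 ± 300.1 CPM (1.04, adjusted p = 5.68e-06), and Comp, a matrix protein of cartilage and tendon, from 951 ± 81.5 to 1243 ± 303 CPM (0.39, adjusted p = 0.0177). Scrg1, chosen after its values were seen, had 0 counts in all wild type libraries and between 7 and 28 in the knockout, at least 3.37-fold higher against a floor of 3 counts per library, and was under the filter.

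**Figure D3:**
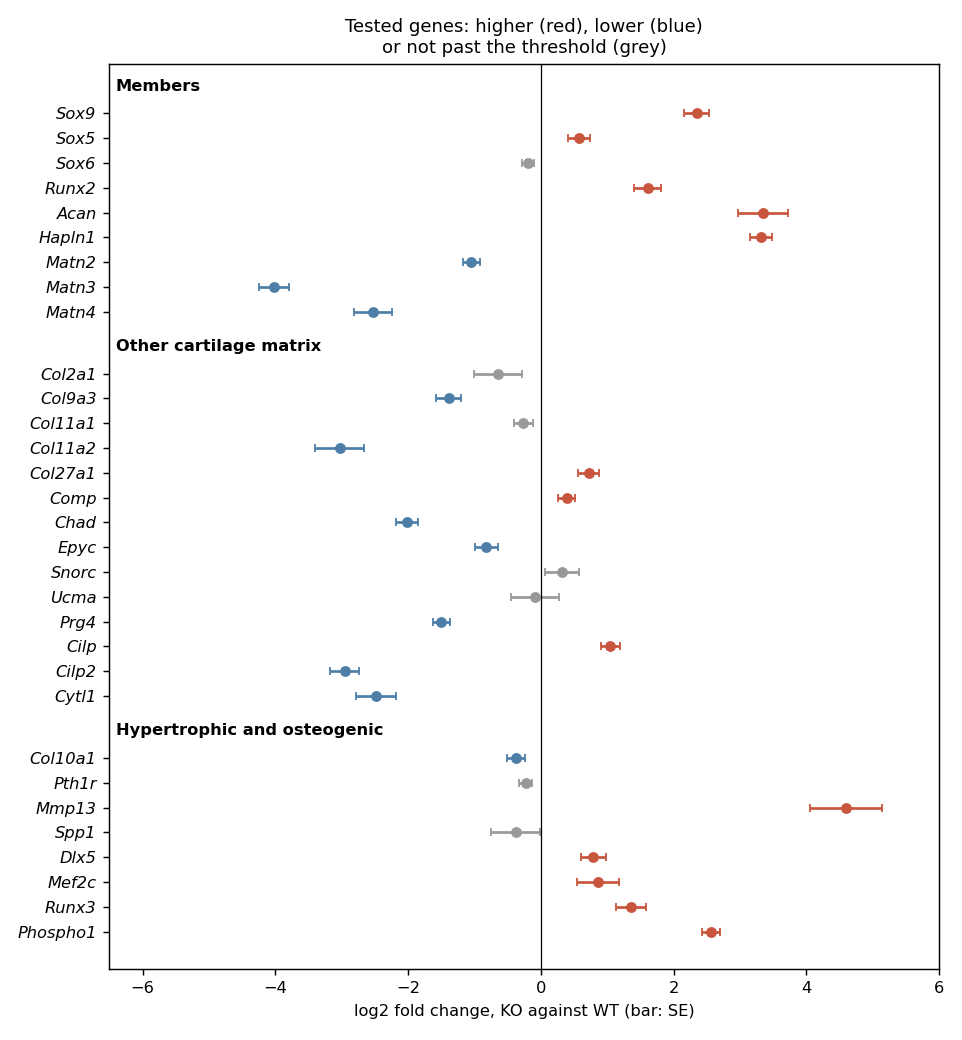
Log2 fold change between knockout and wild type with its SE for the tested members and genes of related lists, coloured by whether each was higher, lower or not past the threshold. Acan and Hapln1 lie at 3.34 and 3.32, whereas Col2a1 lies at -0.64, Col11a2 at -3.03 and Matn3 at -4.02.

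Of 16 genes of chondrocyte hypertrophy and bone, 8 passed the filter, 5 higher and 1 lower, with a median log2 fold change of 0.83. The shares over all tested genes were 25.6% higher and 22.7% lower. Mmp13, a collagenase of hypertrophic cartilage, lay between 0.0844 and 0.546 CPM in wild type and between 1.04 and 15.8 CPM in the knockout (log2 fold change 4.60, SE 0.540, edgeR, adjusted p = 1.80e-06, n = 8). It had 1 to 7 counts per wild type library, around the floor of 3, and 21 to 278 per knockout library. Mmp13, among the 5 higher, thus passed the filter only through the knockout, and the size of its change is uncertain. Runx3 rose from 0.664 ± 0.198 to 1.70 ± 0.546 CPM (1.36, edgeR, adjusted p = 7.58e-05). It had 5 to 10 counts per wild type library and 12 to 43 per knockout library. Runx3 thus also passed the filter only through the knockout, and the size of its change is uncertain. Phospho1, a phosphatase of mineralising tissue, rose from 11.2 ± 2.44 to 65.6 ± 12.5 CPM (2.56, adjusted p = 1.77e-11), but 1818 of its 2029 exonic bases overlap Zfp652 and 1708 overlap Abi3, so this count is uncertain. The hypertrophic collagen gene Col10a1 fell from 6.06 ± 1.06 to 4.66 ± 0.917 CPM (-0.38, adjusted p = 0.0277). That call was lost without wild type library 1, 2 or 3 or knockout library 2, 4 or 6, and with total counts (-0.08, adjusted p = 0.627, the highest over its alternatives). The Schwann score (-0.31, edgeR, adjusted p = 0.149) or the endothelial score (-0.60, adjusted p = 0.0569) as a covariate also ended it. Ihh, a signal of growth plate cartilage, had at most 2 counts and Sp7, the osteoblast factor, at most 4 counts in any library. Mef2c, which also acts in muscle and vessels, was higher (0.86, adjusted p = 0.0316), with a value of 0.11 without knockout libraries 6 to 8 (adjusted p = 0.645, the highest over its alternatives) and of -0.50 with the endothelial score as a covariate (adjusted p = 0.191). With the muscle score as a covariate it was 0.29 (adjusted p = 0.215) and with the Schwann score 0.53 (adjusted p = 0.255). Leaving out wild type library 1, 2, 6 or 8, or knockout library 6, 7 or 8, also ended its call.

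Of 17 other regulators of chondrogenesis, 11 were tested, 6 higher and 3 lower, with a median log2 fold change of 0.46. The shares over all tested genes were 25.6% higher and 22.7% lower. Barx2, a homeobox factor, rose from 0.201 ± 0.250 to 21.6 ± 5.66 CPM (6.78, SE 0.337, edgeR, adjusted p = 1.14e-11, n = 8), from 0 to 8 counts per wild type library to between 183 and 629 per knockout library. It thus passed the filter only through the knockout, and the size of its change is uncertain. Gdf5, a joint growth factor, rose from 0.766 ± 0.438 to 18.6 ± 4.92 CPM (4.60, adjusted p = 8.90e-11), with 936 of its 2320 exonic bases overlapping Gm15557 on the other strand. Trps1, a repressor in growth plate cartilage, rose from 280.3 ± 44.1 to 507 ± 96.9 CPM (0.85, adjusted p = 7.51e-06). Bmpr1b, a receptor for BMPs and GDF5, fell from 251 ± 30.6 to 95.5 ± 18.2 CPM (-1.39, adjusted p = 2.37e-09), and the transcription factor gene Zbtb20 from 1852 ± 207 to 986 ± 119 CPM (-0.91, adjusted p = 1.13e-07). As counted, Gdf5 and its receptor gene Bmpr1b moved in opposite directions. The Gdf5 count is uncertain because of the overlap with Gm15557, and it was 3 to 18 per wild type library.

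Of 11 tendon cell genes 7 fell and 1 rose, with a median log2 fold change of -0.78, where 22.7% of all tested genes were lower and 25.6% higher. Kera, which encodes keratocan, fell from 1306 ± 260.5 to 288 ± 139.8 CPM (-2.18, edgeR, adjusted p = 3.54e-06, n = 8). Col1a1, the main tendon collagen, had a log2 fold change of -0.95 (adjusted p = 0.00170), a call lost with the endothelial score as a covariate (-0.66, adjusted p = 0.219, the highest over its alternatives), and Col1a2 of -1.44 (adjusted p = 6.01e-06). The collagen gene Col3a1 rose (1.89, adjusted p = 1.72e-10). Measured against these lists, the chondrogenic change was partial: Sox9, Sox5, Runx2, Acan and Hapln1 rose, Sox6 and Col2a1 did not pass the threshold, Cnmd could not be tested and the 3 tested matrilins fell.

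**Figure D4:**
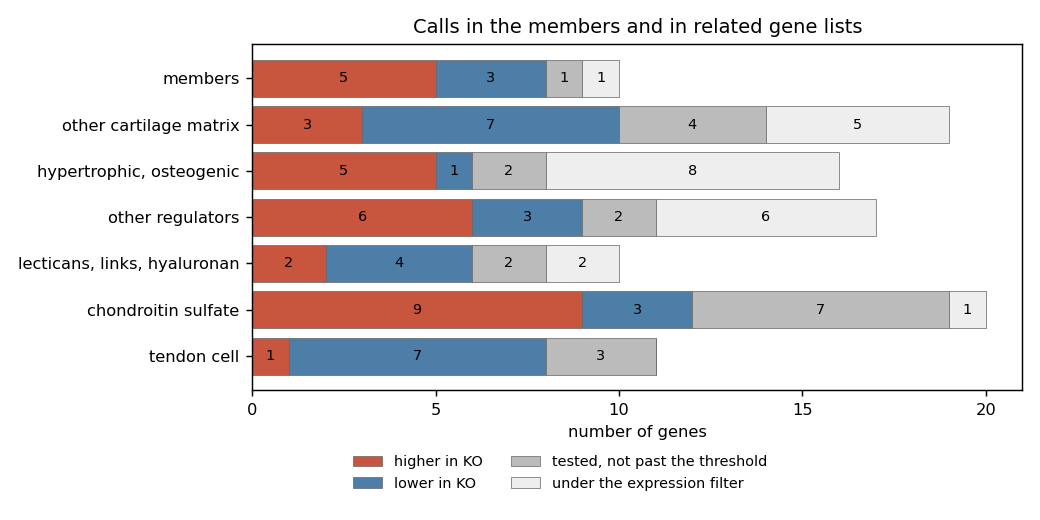
Number of genes that were higher, lower, tested without passing the threshold, or under the expression filter, for the members and related gene lists. The members split into 5 higher and 3 lower, and the other cartilage matrix genes into 3 higher and 7 lower. Among all tested genes 25.6% were higher and 22.7% lower.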

How the data were processed

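RNA-seq of 16 libraries of tail tendon fascicles, 8 wild type and 8 Vhl knockout, was analysed from the gene counts the authors deposited, whole-number read counts per gene with no normalization. The submitters' processing notes name featureCounts, kallisto and GRCm39, without their roles; annotation release, filters and strand setting are not given in the sources used here. Symbols were found for 25614 of 25719 gene IDs. Exon lengths and overlaps came from GENCODE M21, which is on another build, so no gene coordinates are given.

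Groups were taken from the labels. Genes were filtered and counts scaled by TMM in edgeR 4.0.16 (R 4.3.3), and the genotypes were compared with its quasi-likelihood test, Benjamini-Hochberg adjusted over 14803 tested genes at 0.05. Differences between members used exact permutation tests (scipy 1.17.1) for 9 of 10 planned pairs, Cnmd with Tnmd being left out because Cnmd was under the filter. The fit was tested on simulated data. No libraries were duplicates: the lowest chi-square per degree of freedom between replicates was 6.56. No pairing of the libraries by replicate number was detected. Total counts set a floor of 3 counts at 0.209 to 0.336 CPM in the wild type and 0.145 to 0.256 CPM in the knockout, for counting error only.

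The members and gene lists were chosen with earlier results of these data known. Named genes were the members, a fixed set of cartilage genes with Vcan, Tnmd and Vhl, the 3 most abundant and the 3 most changed of each list, and the 5 most like Sox9 and Acan. Fmod, Pth1r and Spp1 met this rule, but their values are not given here. Alternatives were other scalings and filters, DESeq2 1.42.0, limma 3.58.1 with voom, marker scores or the level of Y-linked genes as covariates, a replicate block, and leaving out libraries.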

Additional observations from a re-analysis of the deposited data

Results flagged for a closer look

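In each genotype the lowest and highest of the 8 libraries were compared with the spread of the others for every named gene. Of 114 such checks, 10 found a library apart from the rest, where chance alone gives about 1 in 20, or 5.7, and 0 were on the 10 members. Wild type library 3 gave 6 of them. It was the lowest of its group for Col2a1, at a log2 CPM of 4.42 with the next library at 6.33, for Chpf at 6.14, for Col1a1 at 16.0005, for Col1a2 at 15.51 and for Kera at 9.64, and the highest for Chst15 at 5.90. Wild type library 7 was the highest for Cilp, at 10.96, and for Barx2, at -0.0794. Wild type library 5 was the highest for Mef2c, at 7.34, and knockout library 1 for Has3, at 4.52.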

How the results depend on the processing

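Of 29 alternatives, 3 moved the counts of members called, 5 higher and 3 lower: the endothelial score as a covariate gave 4 higher, without Sox5, and leaving out wild type library 3 or knockout library 1 gave 4 lower, with Sox6. Scaling to total counts moved the median log2 fold change of all tested genes from 0.02 to 0.32 and the share of calls that were higher from 53.0% to 85.4%. The number of hypertrophy and bone genes called lower, 1, was 0 with total counts or with the Schwann or endothelial score as a covariate, 2 with no expression filter or with DESeq2's Wald test, and 0 to 2 without 1 library. With the endothelial score, 1 in place of 3 chondroitin sulfate genes and 4 in place of 7 tendon genes were lower, and the value of Mef2c reversed to -0.50. That score, which itself nearly separated the genotypes, reduced all calls from 7151 to 4494. The tendon genes called higher, 1, were 2 with total counts and 1 to 2 without 1 library. The shift between Sox9 and Runx2 lay between 0.58 and 0.89 without 1 library, and 10 of those 16 values lost the threshold. In each case the cause was not tested. The fit without knockout libraries 6 to 8 was chosen after seeing the data.

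Libraries of the same number correlated between -0.397 and 0.394, and 1 of 8 numbers matched its own number best, so no pairing by number was detected. The check cannot exclude a pairing, as differences in tissue make-up between libraries could hide it. With a replicate block the members were again 5 higher and 3 lower, all calls went from 7151 to 7010, and Mef2c lost its call at 0.71 (adjusted p = 0.128).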

Other observations

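Several pairs of genes with overlapping exons had log2 fold changes close to each other. Beside Matn4 at -2.53, Rbpjl had -2.43, and beside Matn2 at -1.05, 9430069I07Rik had -0.95. Beside Gdf5 at 4.60, Gm15557 had 4.58, and beside Phospho1 at 2.56, Abi3 had 2.39 and Zfp652 had 0.23. Smarcd3, which overlaps Chpf2 at 0.26, had 0.11. Whether reads of one gene were counted for the other was not tested.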
